A study of Rattus norvegicus with 4 samples.

Results

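The nuclear-encoded genes of the mitochondrial respiratory chain were compared between uteri of rats given ormeloxifene and uteri of rats given vehicle. Members were the genes whose probe sets carried a single symbol beginning with Ndufa, Ndufb, Ndufc, Ndufs, Ndufv, Uqcr, Atp5, Cox4i, Cox5, Cox6, Cox7 or Cox8, or were Sdha to Sdhd, Cyc1 or Cycs. The rule gave 102 of 18166 genes tested, from 109 of 18511 probe sets with 1 symbol. They held 32 subunits of complex I, 8 complex I assembly factors caught by the prefix Ndufa, 4 subunits of complex II, 8 of complex III, cytochrome c, 18 subunits or isoforms of complex IV, 14 genes of complex V, and 17 genes whose symbols mark them as copies or pseudogenes of the others. Ndufa4 and its relative Ndufa4l2 were counted with complex IV, where the protein of Ndufa4 is now placed.

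The study used whole uterus of Sprague Dawley rats aged 10 to 12 weeks, taken on day 5 of pregnancy, when the rat uterus is preparing for implantation. In the ormeloxifene group, rats were fed on day 1 of pregnancy with 1.25 mg/kg of ormeloxifene, a nonsteroidal modulator of the oestrogen receptor used as an oral contraceptive, given in gum acacia. Rats of the vehicle group received the vehicle without the drug. Each group had 2 arrays, numbered 1 and 2, and per the labels 100 ng of total RNA was converted to biotinylated single-stranded DNA for each. The labels call the arrays biological replicates 1 and 2 of each group. They do not say whether RNA of several rats was pooled for an array. The p-values therefore measure the spread between these arrays, part of which may be technical.

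The respiratory chain sits in the inner mitochondrial membrane. Complexes I and II pass electrons from NADH and succinate to ubiquinone, complex III hands them to cytochrome c, complex IV passes them to oxygen, and complex V uses the resulting proton gradient to make ATP. Most subunits are encoded in the nucleus, and many of their promoters hold sites for the factors NRF1 (nuclear respiratory factor 1), GABPA, YY1 and the oestrogen-related receptors, all of which are known regulators of mitochondrial genes.

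Promoter sequences are shown first because members that carry the NRF1 letters were lower with ormeloxifene as a group. This order was chosen after the values were seen, and the NRF1 letters had the lowest median difference of the motifs searched. RefSeq promoters (build GRCr8, 250 bases before to 50 bases after the start) were found for 82 members, 75 of which were not copies. The letters searched for NRF1 were GCGCATGCG, which read CGCATGCGC on the other strand and so overlap themselves where a run reads GCGCATGCGC. The following 8 members held them, each shown 5′ to 3′ with up to 14 bases on either side and with the matching letters in capitals.
Ndufa11 (chr9:1637503-1637546, plus strand): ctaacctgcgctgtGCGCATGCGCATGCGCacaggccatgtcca
Ndufaf4 (chr5:43401623-43401660, plus strand): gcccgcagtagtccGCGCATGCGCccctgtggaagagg
Ndufaf5 (chr3:147961583-147961620, plus strand): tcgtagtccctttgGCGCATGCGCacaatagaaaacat
Uqcrc1 (chr8:118468170-118468206, plus strand): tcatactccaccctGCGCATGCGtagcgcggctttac
Atp5me (chr14:1464770-1464807, plus strand): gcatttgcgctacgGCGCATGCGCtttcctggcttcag
Atp5mg (chr8:54130629-54130657, minus strand): caatgaCGCATGCGCatttccccacttca
Atp5po (chr11:44657519-44657556, minus strand): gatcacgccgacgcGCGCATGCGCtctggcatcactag
Cycs (chr4:80984903-80984939, minus strand): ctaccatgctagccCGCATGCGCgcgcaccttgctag
These letters occurred in 8 of 75 members (10.7%) and in 443 of all 27457 promoters of the table (1.61%). The 8 genes spanned complexes I, III and V, 2 assembly factors and cytochrome c. A match describes the letters of the window and does not show that the factor binds there.

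All 8 members with the NRF1 letters were lower on average in the ormeloxifene arrays. Their median difference, ormeloxifene minus vehicle, was -0.29 on the log2 scale, and in 5 of the 8 (62.5%) both ormeloxifene arrays lay below both vehicle arrays, against 11.8% of all genes tested. That count was 4 on the values as deposited (against 7.65% of all genes) and 4 with arrays centred on their medians (against 11.5%). Among the 67 other members with a promoter that were not copies, 44 were lower, the median difference was -0.06 and 12 (17.9%) did not overlap on the lower side. Genes outside the respiratory chain that held the same letters stood near 0: of 328 such genes tested, 52.1% were lower, the median difference was -0.01 and 13.4% did not overlap on the lower side. Within replicate number 1 the median of the 8 was -0.45, and within number 2 it was -0.21. Without the ormeloxifene array of number 1 the median was -0.30, with 7 of the 8 lower. Some of the 8 belong to complex V or to the assembly factors, whose medians were themselves -0.23 and -0.29. Motif and class were not separated. No member passed an adjusted limma p of 0.05, so this is a description of 8 genes on 4 arrays.

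The 8 genes were not alike on the arrays. Atp5me, which encodes subunit e of the membrane part of complex V, read 7.01 and 7.26 with ormeloxifene and 7.66 and 7.41 with vehicle (log2 signal, number 1 then number 2), a difference of -0.40 with a standard error (SE) of 0.22. Atp5mg, which encodes subunit g of the same part, read 6.55 and 7.75 against 7.53 and 7.76. Its difference of -0.49 (SE 0.37) came almost wholly from number 1, where it was -0.98, and within number 2 it was -0.01. Ndufaf5, an assembly factor that modifies a core subunit of complex I, showed the opposite order, with 5.45 and 5.23 against 5.44 and 5.85, so that the groups differed by 0.01 within number 1 and by -0.62 within number 2. Atp5po, the connecting subunit of the complex V stalk, read 8.13 and 8.55 against 8.65 and 8.52. Its groups overlapped, and the difference was -0.24 (SE 0.23). Ndufa11, an accessory subunit of the membrane arm of complex I, read 9.20 and 9.50 against 9.58 and 9.65, with no overlap and a difference of -0.27 (SE 0.22).

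The other motifs were also more frequent among the members than in all promoters. The YY1 letters AAGATGGCG (CGCCATCTT on the other strand) occurred in 11 of 75 members (14.7%) and in 1.9% of all promoters. Of those 11, 9 were lower, with a median difference of -0.18 against -0.08 in the other 64. In 5 of the 11 (45.5%) both ormeloxifene arrays lay below both vehicle arrays, against 11.8% of all genes tested. Their median was -0.28 within replicate number 1 and -0.19 within number 2. The 11 included Ndufs6 at -0.64, the lowest member of all, as well as Ndufs4 at 0.37, the highest among the subunits. Uqcrc1 held both the NRF1 and the YY1 letters. The letters CCGGAAGT for GABPA (ACTTCCGG on the other strand) occurred in 7 members (9.33%) against 4.02% of all promoters. These 7 had a median difference of -0.07, against -0.12 in the other 68. In 1 of the 7 (14.3%) the groups did not overlap on the lower side, against 23.5% of the other 68 and 11.8% of all genes tested. The letters TCAAGGTCA for the oestrogen-related receptors (TGACCTTGA on the other strand) occurred in 2 members, Sdhd and Atp5mc3, which is 2.67% against 0.371%. Sdhd differed by 0.00 and Atp5mc3 by -0.30, both with overlapping groups. In all, 27 of 75 members (36%) and 7.44% of all promoters held at least 1 of the 4 motifs. By complex the share ran from 13.3% of 15 complex IV members to 53.8% of 13 complex V members, leaving aside cytochrome c as a single gene and complexes II and III with 4 and 5 promoters. None of the 7 copies with a promoter held any of them.

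**Figure D1:**
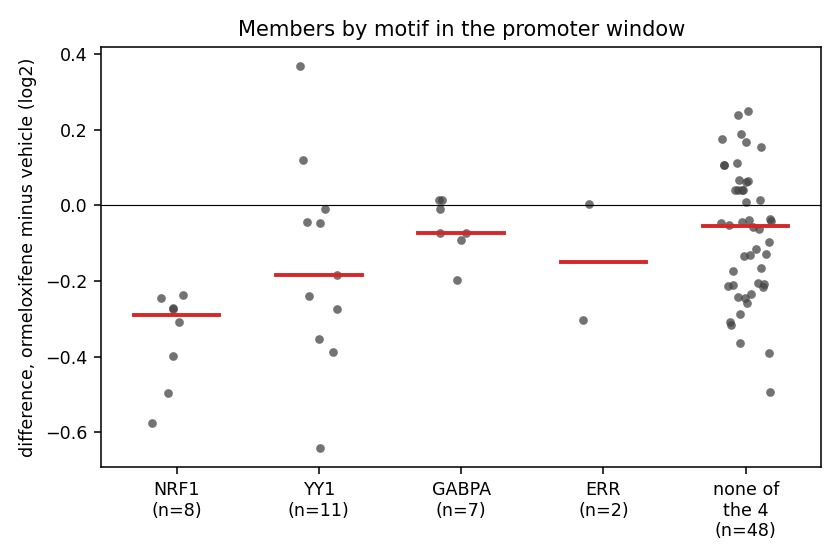
Difference of each non-copy member with a promoter (ormeloxifene minus vehicle, log2; points) by the motif letters in its promoter, with the median of each class as a bar; Uqcrc1 appears under both NRF1 and YY1. All 8 members with the NRF1 letters lie below 0, whereas each other class has points at or above 0.

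The full promoters of Ndufs6 and Ndufaf4 follow, since these were the members at an unadjusted p under 0.05. Capitals mark the YY1 letters in Ndufs6 and the NRF1 letters in Ndufaf4.
Ndufs6 (chr1:31797150-31797449, plus strand): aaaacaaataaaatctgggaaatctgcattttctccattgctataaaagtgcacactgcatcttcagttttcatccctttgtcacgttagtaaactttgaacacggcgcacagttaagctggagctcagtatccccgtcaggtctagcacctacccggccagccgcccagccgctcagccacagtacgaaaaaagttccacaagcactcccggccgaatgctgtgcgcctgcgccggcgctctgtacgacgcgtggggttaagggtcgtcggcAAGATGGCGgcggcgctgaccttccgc
Ndufaf4 (chr5:43401545-43401844, plus strand): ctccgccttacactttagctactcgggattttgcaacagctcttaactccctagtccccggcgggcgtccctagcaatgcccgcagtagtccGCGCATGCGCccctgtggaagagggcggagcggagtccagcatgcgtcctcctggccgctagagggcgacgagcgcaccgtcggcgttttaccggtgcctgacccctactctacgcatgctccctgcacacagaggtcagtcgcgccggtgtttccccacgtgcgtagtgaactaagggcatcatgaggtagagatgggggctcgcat
In Ndufs6 the match lies in the part after the start, and in Ndufaf4 it lies upstream of it.

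Across the whole respiratory chain, members were lower with ormeloxifene more often than genes in general, by small amounts. Of 102 members, 70 had a difference below 0 (68.6%), against 46.6% of all 18166 genes tested, and the median difference was -0.08 against 0.02. Both ormeloxifene arrays lay below both vehicle arrays in 23 members (22.5%), against 11.8% of all genes, and above them in 7 members (6.86%), against 13.9%. The members' share on the lower side thus stood above that of all genes, and their share on the higher side below it. Each array's mean over the members was 7.82 and 7.90 with ormeloxifene and 7.97 and 7.96 with vehicle. In bulk tissue, fewer cells of a type and less RNA per cell cannot be told apart.

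No single member passed the test across all genes. limma with Benjamini-Hochberg adjustment over 18166 genes called 0 members and 0 genes at an adjusted p under 0.05 (0% of all genes), and the smallest adjusted p of a member was 0.999919. At an unadjusted p under 0.05 there were 2 members on the lower side (1.96%, against 1.08% of all genes) and 0 on the higher side (against 1.12%). The arrays were few for differences of this size: the median SE of a member was 0.225 and its 95% interval reached 0.525 to either side of the difference in the median member. This fit had no term for the replicate number, so differences between the numbers also entered the SE. Intervals of 92 members lay wholly between -1 and 1, and 100 of the 102 held 0.

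The array with ormeloxifene and number 1 carried a large part of the lower values. Without it, 56 of 102 members were lower (54.9%), against 48.4% of all genes, and the median difference was -0.04. Leaving out the ormeloxifene array of number 2 gave 77 lower (75.5%, against 46.3% of all genes). Leaving out the vehicle array of number 1 gave 70 (68.6%, against 50.5%). Without the vehicle array of number 2 it was 61 (59.8%, against 45%), so that array also carried part of the lower values. On the values as deposited, without quantile normalization, 75 members were lower (73.5%, against 47.5% of all genes), and 79 were lower (77.5%, against 51.5%) when each array was centred on its median.

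Arrays that shared a replicate number also resembled each other. Identical deposited values were found at 488 probe sets between the arrays of number 1, at 551 between those of number 2 and at 0 in each of the other 4 pairs of arrays. The numbers were therefore read as a batch of processing that spans both groups, although the labels name no batch. Over the members, the median absolute difference was 0.199 between the arrays of number 1 and 0.155 between those of number 2, but 0.276 between both ormeloxifene arrays and 0.264 between both vehicle arrays. In 66 members (64.7%, against 63.9% of all genes) the numbers differed by more than the groups. Atp5if1, the natural inhibitor of complex V, shows the pattern: it read 7.33 and 8.24 with ormeloxifene and 7.54 and 8.45 with vehicle, so number 2 was higher in both groups.

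Within number 1 the median difference over the members was -0.13, and within number 2 it was -0.03, against 0.04 and -0.02 for all genes. In 45 members (44.1%, against 24.4% of all genes) ormeloxifene was lower in both numbers, in 19 (18.6%, against 27.9%) it was higher in both, and in 37 the sign differed between them. Across the 102 genes the differences of both numbers had a Pearson correlation of 0.17, and 0.30 over the 85 members that are not copies. Those pairs share no array, and genes are not independent replicates. With the replicate number as a block in limma, 7 members had an unadjusted p under 0.05 on the lower side (6.86%, against 3.02% of all genes). On the higher side there was 1 (0.98%, against 3.74%). At an adjusted p under 0.05 there were 0 members and 5 of all genes. The 7 were Ndufs6, Ndufaf2, Ndufaf4, Ndufaf8, Cox6a2, Atp5pd and the pseudogene Ndufs6-ps1, and the 1 on the higher side was Uqcr11l1.

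**Figure D2:**
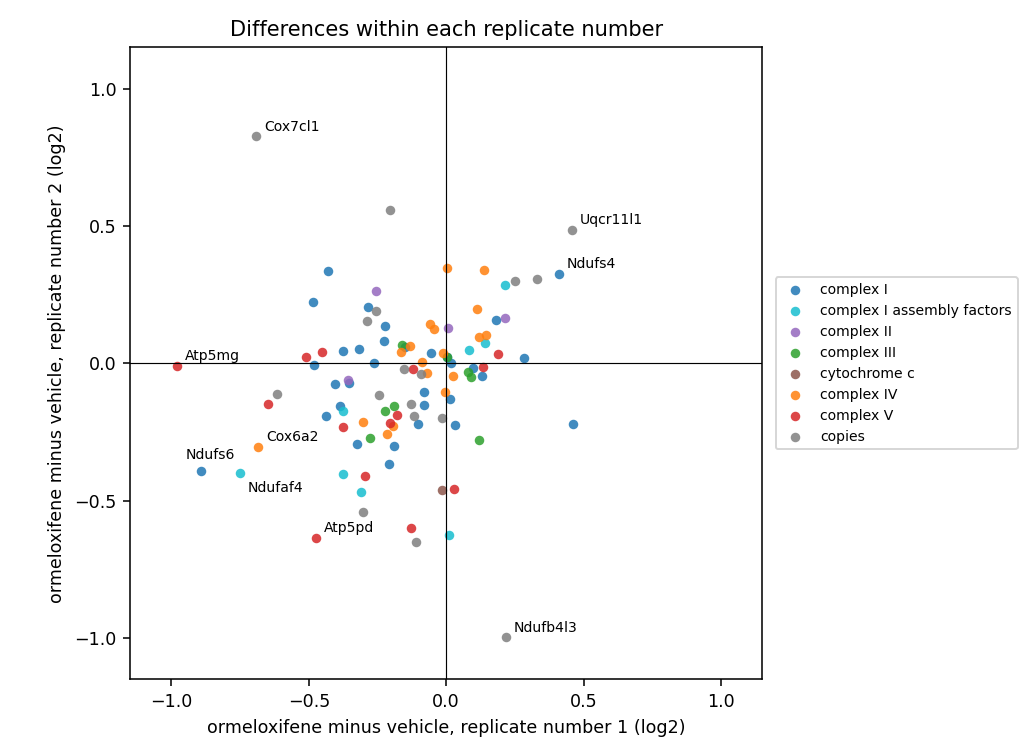
Difference of each member between ormeloxifene and vehicle (log2) within replicate number 1 (horizontal axis) and within number 2 (vertical axis), coloured by complex. Of 102 members, 45 lie at the lower left, lower in both numbers, and 19 at the upper right, with Ndufs6, Ndufaf4, Atp5pd and Cox6a2 at the edge of the lower left field.

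By complex, the lower values were most frequent in complex V and among the accessory subunits of complex I. In complex V, 12 of 14 members were lower, with a median of -0.23. In complex I, 24 of 32 were lower, with a median of -0.09. Complex III had 5 of 8 lower (median -0.06), complex IV had 10 of 18 (median -0.02), and complex II had 1 of 4 (median 0.04). Among the complex I assembly factors 5 of 8 were lower, with a median of -0.29, and among the copies 12 of 17, with a median of -0.09. When single arrays were left out in turn, the median stayed below 0 in complex I (-0.15 to -0.04), in complex V (-0.26 to -0.08) and among the assembly factors (-0.23 to -0.11). It took both signs in complex II (-0.14 to 0.19), complex III (-0.18 to 0.01), complex IV (-0.07 to 0.08) and the copies (-0.25 to 0.03). Differences between the complexes were not tested.

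**Figure D3:**
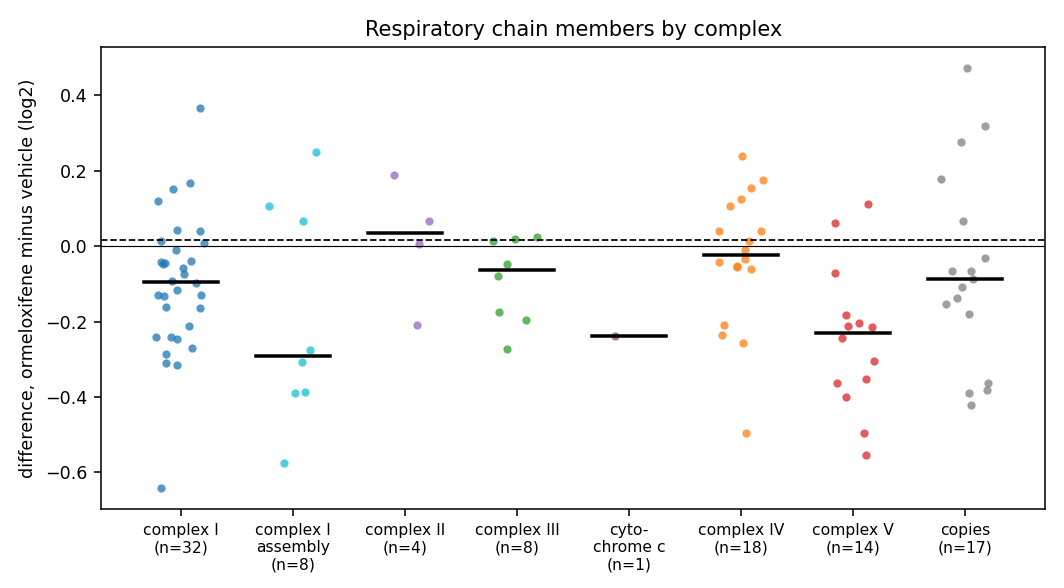
Difference of each member (ormeloxifene minus vehicle, log2; points) by complex, with the median of each class as a bar and the median of all genes, 0.02, as a dashed line. The bar of complex V stands at -0.23 with 12 of 14 points below 0, and that of complex IV at -0.02 with points on both sides.

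Complex I takes electrons from NADH through a chain of core subunits, around which the accessory subunits are built. The 6 core subunits with a probe set showed no common direction: 3 were lower and the median was -0.01. Ndufs1, the large iron-sulphur subunit, read 7.42 and 7.70 with ormeloxifene and 7.50 and 7.80 with vehicle, with overlapping groups. Ndufv1, which holds the flavin that accepts electrons from NADH, read 8.73 and 8.75 against 8.63 and 8.77, also overlapping. Of the 26 accessory subunits, 21 were lower, with a median of -0.13, and in 7 of them the ormeloxifene arrays lay below both vehicle arrays (against 11.8% of all genes), while in 0 they lay above both (against 13.9%). The difference in direction between core and accessory subunits was not tested. The accessory median was -0.22 within number 1 and -0.03 within number 2, so most of it lay in number 1.

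Ndufs6, a zinc-binding accessory subunit of the peripheral arm of complex I, was the lowest of all members. Its probe set 17713540 read 6.08 and 6.61 with ormeloxifene and 6.97 and 7.00 with vehicle. The vehicle arrays nearly coincided and both ormeloxifene arrays lay below them, that of number 1 furthest. The difference was -0.64 (SE 0.24, 95% interval -1.21 to -0.07), a 1.56-fold lower signal, with an unadjusted p of 0.0315 and an adjusted p of 0.999919 in limma. Without the ormeloxifene array of number 1 it was -0.38, and without that of number 2 it was -0.91. On the values as deposited the unadjusted limma p was 0.0964. The pseudogene Ndufs6-ps1, whose probe set may share sequence with its parent so that their signals cannot be told apart, read 5.78 and 5.57 against 6.08 and 6.11.

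Ndufs4, an accessory subunit needed for stable complex I, was the subunit with the highest difference. It read 10.52 and 10.99 with ormeloxifene and 10.11 and 10.66 with vehicle. Each ormeloxifene array was above the vehicle array of its number, but the groups overlapped. The difference was 0.37 (SE 0.27, limma adjusted p 0.999919), and it was 0.09 without the vehicle array of number 1 and 0.64 without that of number 2.

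The assembly factors help to build complex I and are not part of the finished enzyme. Ndufaf4 was the lowest of the 8. Its probe set 17797628 read 5.17 and 5.65 with ormeloxifene and 5.92 and 6.04 with vehicle, and the groups did not overlap. The difference was -0.57 (SE 0.24, 95% interval -1.13 to -0.02), a 1.49-fold lower signal, with an unadjusted limma p of 0.0434. Like Ndufs6 it was furthest below vehicle in number 1, and without the ormeloxifene array of number 1 its difference was -0.34. The unadjusted limma p was 0.125 on the values as deposited. Ndufaf8, which partners Ndufaf5, read 6.50 and 6.17 against 6.81 and 6.64, a difference of -0.39 (SE 0.22) without overlap. Ndufaf2, a factor of the late assembly steps, read 4.77 and 4.29 against 5.14 and 4.70 and lay in the lowest 25% of genes by signal. In the other direction, Ndufaf1, which helps to build the membrane arm, read 5.97 and 6.05 against 5.76 and 5.76, a difference of 0.25 (SE 0.20) with no overlap.

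Complex II, succinate dehydrogenase, is also an enzyme of the citric acid cycle, and all of its subunits are nuclear. Sdha, the flavin subunit, read 8.65 and 8.35 with ormeloxifene and 8.64 and 8.22 with vehicle, and followed the number rather than the group. Sdhb, the iron-sulphur subunit, read 8.82 and 8.74 against 9.17 and 8.80, overlapping, with a difference of -0.21 (SE 0.22). Sdhc, a membrane anchor, was the highest of the 4, with 9.43 and 9.29 against 9.21 and 9.13. Its groups did not overlap, at a difference of 0.19 (SE 0.20). The fourth, Sdhd, differed by 0.00 (SE 0.22).

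In complex III, the lowest member was Uqcrc1, a core protein on the matrix side. It read 8.38 and 8.21 with ormeloxifene and 8.66 and 8.48 with vehicle, which gave nearly the same difference in both numbers, -0.28 and -0.27, without overlap (SE 0.21). Uqcrfs1, the Rieske iron-sulphur protein, read 6.86 and 6.60 against 7.05 and 6.75, and Cyc1, cytochrome c1, read 9.51 and 9.11 against 9.39 and 9.38. Both had overlapping groups. Uqcrb, a ubiquinone-binding subunit, was the highest at 0.02 (SE 0.28). Its values of 5.80 and 6.27 against 5.72 and 6.30 split by number in both groups, and the sign of its difference turned in 3 of 11 alternatives.

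Cytochrome c carries electrons from complex III to complex IV, and its gene Cycs was read by 2 probe sets. The brighter read 9.96 and 9.77 with ormeloxifene and 9.97 and 10.23 with vehicle, a difference of -0.24 (SE 0.22) in which both ormeloxifene arrays lay below the vehicle arrays, that of number 1 barely. The dimmer, 17791312, read 7.52 and 7.82 against 8.34 and 8.58. It showed a clear gap between the groups, with a difference of -0.79 and an unadjusted limma p of 0.0210 when all probe sets were tested. The rule kept the brighter probe set, and the mean of both differed by -0.51 between the groups.

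Complex IV, cytochrome c oxidase, has several subunits that exist as a general and a tissue-restricted isoform, and the pairs were set side by side. Cox4i1, the general isoform of subunit 4, read 9.93 and 10.15 with ormeloxifene and 9.82 and 10.06 with vehicle, and Cox4i2, known as its lung and hypoxia isoform, read 7.80 and 7.91 against 7.65 and 7.81. Both pairs of groups overlapped, with differences of 0.11 (SE 0.22) and 0.12 (SE 0.21). Cox6a1, the general isoform, read 10.82 and 11.41 against 11.01 and 11.64, overlapping and higher in number 2 in both groups. Cox6a2, the heart and skeletal muscle isoform, read 6.34 and 6.07 against 7.02 and 6.37. It was the lowest member of the complex, with no overlap and a difference of -0.49 (SE 0.27, limma adjusted p 0.999919), but of -0.17 without the vehicle array of number 1 and -0.82 without that of number 2. Of 4 striated muscle markers read beside it, 3 were lower, with a median of -0.10 and array means of 7.28 and 6.72 with ormeloxifene and 7.04 and 7.04 with vehicle, and their part in the result was not tested.

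Of the remaining pairs, Cox6b1 and Cox6b2 differed in sign, and the sign of Cox8a depended on the setting. Cox6b1, the general isoform, read 7.46 and 7.48 with ormeloxifene and 7.35 and 7.29 with vehicle, a difference of 0.15 (SE 0.20) with no overlap. Cox6b2, known from testis, read 7.30 and 7.24 against 7.51 and 7.50, a difference of -0.24 (SE 0.20) with no overlap. Cox8a read 10.99 and 11.38 against 11.00 and 11.34, split by number. Its difference was 0.01 (SE 0.24), and the sign turned in 5 of 11 alternatives. Cox8b, a muscle isoform in rodents, read 5.66 and 5.71 against 5.53 and 5.37. For Cox8b that was the largest positive difference of the complex, 0.24 (SE 0.21), with no overlap. The pair Cox7a1 and Cox7a2 had no probe set with a single symbol and was not analysed here as a pair. The shared probe sets given at the end name Cox7a2 but not Cox7a1.

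Complex V makes ATP with a catalytic head, a rotating central stalk and a peripheral stalk that holds the head to the membrane. The members of the head and central stalk stood nearer to 0 than the median of the complex. Atp5f1a, the alpha subunit of the head, read 9.48 and 9.44 with ormeloxifene and 9.60 and 9.46 with vehicle, and Atp5f1b, the catalytic beta subunit, read 11.38 and 11.47 against 11.24 and 11.48. Atp5f1d, the delta subunit of the central stalk, read 11.37 and 11.06 against 11.18 and 11.03. All 3 had overlapping groups, with differences of -0.07, 0.06 and 0.11, and the last 2 were the only members of complex V above 0.

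The lowest members of complex V encode parts of the peripheral stalk and of the membrane sector. Atp5pd, subunit d of the peripheral stalk, was the lowest, with 6.40 and 5.78 with ormeloxifene against 6.87 and 6.42 with vehicle. Its groups did not overlap, although the ormeloxifene array of number 1 and the vehicle array of number 2 nearly met. The difference was -0.56 (SE 0.28, 95% interval -1.21 to 0.10), a 1.47-fold lower signal, with an unadjusted limma p of 0.0861 and of 0.0101 with the replicate block, where the adjusted p was 0.572. It was -0.47 within number 1 and -0.64 within number 2, -0.86 without the ormeloxifene array of number 1 and -0.25 without that of number 2. Atp5mc1, which encodes the proton-carrying c subunit of the rotor ring, read 9.30 and 8.75 against 9.43 and 9.35, a difference of -0.36 (SE 0.25) without overlap. Atp5mf, subunit f of the membrane part, read 7.36 and 6.87 against 7.65 and 7.28, a difference of -0.35 (SE 0.25) with overlap.

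The mean of the 14 genes of complex V was 8.77 and 8.89 with ormeloxifene and 9.06 and 9.09 with vehicle. Both ormeloxifene arrays were below both vehicle arrays, by -0.25 in the median gene within number 1 and by -0.17 within number 2, and 9 of the 14 were lower in both numbers. In 4 of the 14 the groups did not overlap on the lower side (against 11.8% of all genes), and in 0 on the higher side (against 13.9%). Without the ormeloxifene array of number 1 the median of complex V was -0.08.

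**Figure D4:**
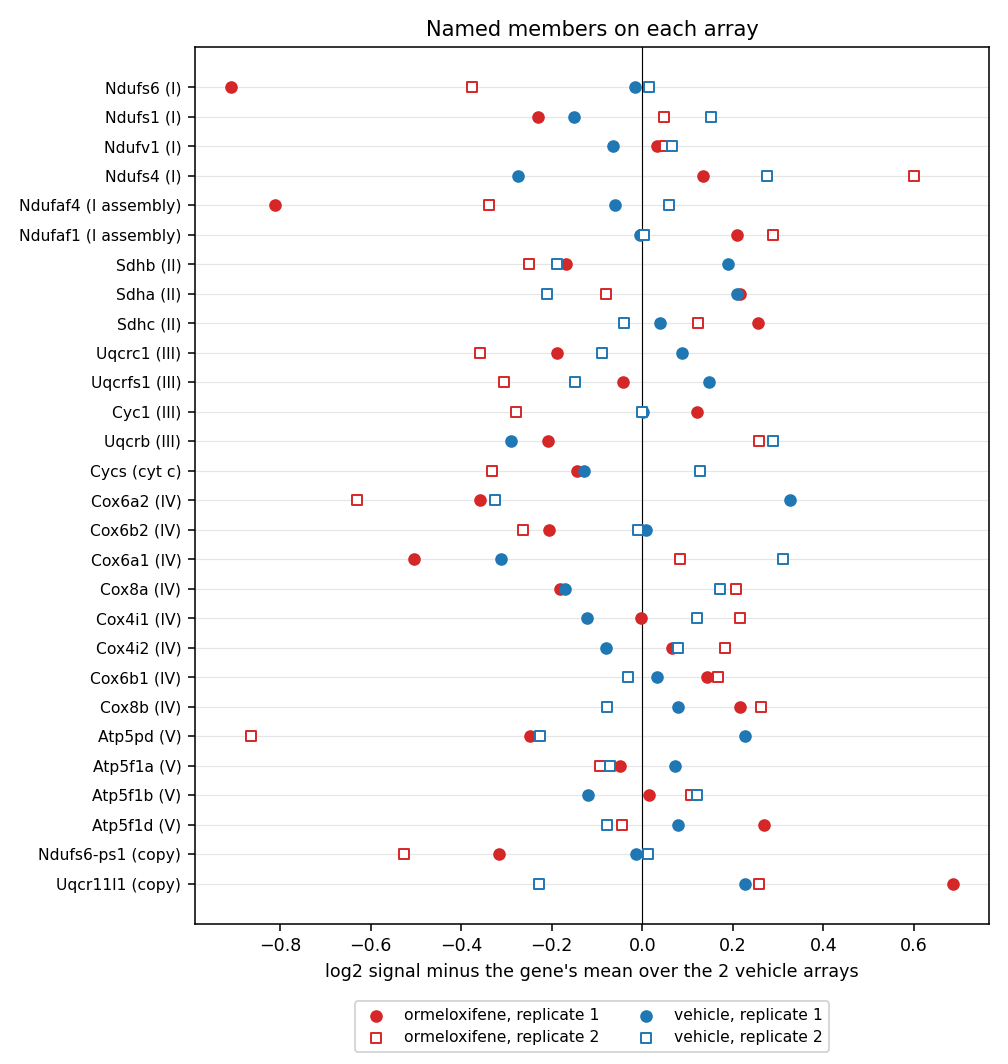
Log2 signal of the named members on each of the 4 arrays (red, ormeloxifene; blue, vehicle; filled circles, number 1; open squares, number 2), each minus the gene's mean over the vehicle arrays, which 0 marks. Both red points lie to the left of both blue points in Ndufs6, Ndufaf4 and Atp5pd, whereas in Cox6a1, Cox8a and Uqcrb the circles and squares separate more than the colours.

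The 17 copies and pseudogenes resemble their parent genes in sequence, so a probe set of either may read both, and their values are uncertain for that reason. Uqcr11l1 was the highest of all members, with 5.68 and 5.25 with ormeloxifene against 5.22 and 4.77 with vehicle. The groups did not overlap, the difference was 0.47 (SE 0.26, limma adjusted p 0.999919), and its parent Uqcr11 differed by 0.02 (SE 0.23). Atp5hl1, a pseudogene, read 6.45 and 6.63 against 6.12 and 6.33, a difference of 0.32 (SE 0.21). Of the 17, 6 lay in the lowest 25% of genes by signal, 4 had groups without overlap on the lower side (against 11.8% of all genes) and 3 on the higher side (against 13.9%). Without the copies, 58 of 85 members were lower, with a median of -0.08.

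The members were brighter than most genes, with 66 of them among the 25% of genes of highest signal. Of those 66, 71.2% were lower, against 47.8% of all 4542 genes in that range, and of the 36 dimmer members 63.9% were lower, against 46.2% of the other genes. Their medians were -0.07 and -0.14, so members stood on the lower side of their range in bright and in dim genes alike.

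Other mitochondrial genes, from lists of the pathway, had medians between -0.04 and 0.00, against -0.08 for the members and 0.02 for all genes; these differences between lists were not tested. Of 25 regulators of mitochondrial biogenesis, 15 were lower, with a median of -0.04. Of all genes, 1.08% had an unadjusted limma p under 0.05 on the lower side and 1.12% on the higher side. Among the 25 regulators, Pprc1, a coactivator that works with NRF1, was the 1 gene at such a p. It read 5.89 and 6.02 with ormeloxifene and 6.45 and 6.78 with vehicle, without overlap, at a difference of -0.66 (SE 0.22, unadjusted limma p 0.0188, adjusted 0.999919). Twnk, the mitochondrial DNA helicase, had the next smallest p, at 0.37 (SE 0.22). Nrf1 itself read 7.02 and 7.26 against 7.03 and 7.47, overlapping, with a difference of -0.11 (SE 0.24). Of 72 genes of the mitochondrial ribosome 45 were lower (median -0.04), and 17 had groups without overlap on the lower side and 5 on the higher side (against 11.8% and 13.9% of all genes). They were led by Mrps10 at -0.45 (SE 0.21) and Mrpl47 at -0.44 (SE 0.24).

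Of 16 genes that mark the amount of mitochondria 11 were lower (median -0.02). In 5 the groups did not overlap on the lower side and in 2 on the higher side (against 11.8% and 13.9% of all genes). The genes of smallest p were Hspe1, a chaperonin of the matrix, at -0.52 (SE 0.24) and Tomm70, an import receptor, at -0.44 (SE 0.22). Of 34 further assembly factors 20 were lower (median -0.03), with Dmac1 at 0.38 (SE 0.20) and Bcs1l at -0.31 (SE 0.21) of smallest p. The 16 genes of the citric acid cycle and pyruvate dehydrogenase split evenly, 8 lower and 8 higher (median 0.00), with Idh3g at 0.28 (SE 0.23) and Idh2 at 0.21 (SE 0.21) of smallest p. The mitochondrially encoded subunits with a probe set, COX1, COX2 and COX3, differed by -0.04, -0.13 and -0.04. Groups without overlap numbered 3 on the lower and 3 on the higher side among the regulators of biogenesis. They numbered 6 and 5 among the further assembly factors and 0 and 2 in the citric acid cycle list. Among the mitochondrially encoded subunits they numbered 0 and 0. The shares over all genes were 11.8% on the lower and 13.9% on the higher side. In none of these lists did a gene pass an adjusted limma p of 0.05, and besides Pprc1 none had an unadjusted p under 0.05.

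Cell type markers of the uterus were read beside the members. All 5 smooth muscle markers were higher with ormeloxifene (median 0.22), and the mean of their log2 signals was higher in both ormeloxifene arrays, at 10.84 and 10.67 against 10.59 and 10.42. Of 6 epithelial markers 4 were lower (median -0.13, means 7.26 and 7.45 against 7.39 and 7.56), of 6 stromal markers 3 were lower (median 0.03), and both endothelial markers with a probe set were higher (0.25 and 0.27). Macrophage markers were higher in 3 of 4, adipocyte markers in 3 of 5 and erythroid markers in 1 of 2. None of these genes had an unadjusted limma p under 0.05, and the part of cell composition in the members' differences was not tested.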

How the data were processed

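Uterine RNA of 2 ormeloxifene and 2 vehicle arrays was analysed. The authors deposited log2 values of 36685 probe sets, a scale inferred from their range (0.92 to 13.59). Affymetrix Expression Console is named in the submitters' processing notes; its version, the summary method and the genome build were not given in the sources used here. Array medians ran from 5.67 to 5.93, so all probe sets were quantile normalized. The platform annotation gave 1 symbol for 18511 probe sets, and the brightest per gene was kept. Differences come from limma 3.58.1 in R 4.3.3 (lmFit and eBayes, two-sided, all 4 arrays, no covariate), adjusted over 18166 genes by Benjamini-Hochberg at 0.05, with 2 residual and 7.55 moderated degrees of freedom. An exact permutation test of 2 against 2 arrays cannot go below 0.333. The fit was tested on simulated data that held larger differences than the members showed and no effect of the replicate number. The number of arrays limits the precision, and the table gives no signal over background.

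The members and lists were chosen with earlier results of these data known. Named with all values were members at an unadjusted p under 0.05, the highest and lowest of each complex, isoform pairs and core subunits; further members in the promoter, assembly factor and complex V paragraphs were chosen by motif or after their values were seen. All 102 members matched GRCr8 symbols. Promoter letters were searched on both strands of RefSeq sequences (GRCr8). Alternatives changed the normalization, replicate block, probe set rule, features tested, filter on dim genes, variance prior, member rule and arrays used. Same-numbered arrays shared exact values, so the number was treated as a batch, with only 2 pairs.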

Additional observations from a re-analysis of the deposited data

How the results depend on the processing

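At an adjusted limma p under 0.05, 0 members were called under every alternative run, and the smallest adjusted p of a named member was 0.244. Over all genes, the count at that adjusted p was 84 with the replicate block on the values as deposited and 5 with the replicate block. It was 4 with the other variance prior and 4 without the lowest 25% of genes by signal. With arrays centred on their medians or the mean of a gene's probe sets it was 1. It was 0 on the values as deposited and with all probe sets tested. The count at an unadjusted p under 0.05 depended on the setting. On the lower side it was 2 (196 of all genes), and it was 7 (548) with the replicate block, 6 (596) with the replicate block on the values as deposited, 3 (201) with the mean of a gene's probe sets, 1 (183) with arrays centred on their medians, 1 (196) without assembly factors and 0 (85) on the values as deposited. With all probe sets tested it was 0 (101) when the brightest probe set of each gene was counted. Leaving out single arrays left 1 array in a group, so no counts at an unadjusted p are given for those settings. On the higher side the count was 0 (203 of all genes). It was 1 (680) with the replicate block and 1 (567) with the replicate block on the values as deposited. The share of members lower ran from 54.9% to 75.5% when single arrays were left out. The median over complex V then ran from -0.26 to -0.079, over the assembly factors from -0.23 to -0.11 and over complex II from -0.14 to 0.19. Taking the mean of a gene's probe sets moved cytochrome c to -0.51. Members without overlap on the lower side numbered 23 (11.8% of all genes), 20 on the values as deposited (7.65%) and 25 with centred arrays (11.5%). Of 28 named members 18 kept their sign in every alternative run. Where a value moved, the cause was not tested beyond the change of setting itself.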

Other observations

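Probe sets that carried several symbols were left out of the members, and 8 of them named a respiratory chain gene beside another gene. Ndufs5 and Uqcrb also have a single-symbol probe set among the members. The probe set of Ndufa10 and Ndufa10l1 read 9.59 and 10.06 with ormeloxifene and 9.36 and 9.99 with vehicle, a difference of 0.15 on the log2 scale. That of Ndufa3 and Ndufa3-ps3 read 8.16 and 8.95 against 8.63 and 9.08, a difference of -0.30. Both followed the replicate number more than the group. The 2 probe sets shared by Cox7a2 and Cox7a2l2 differed by 0.00 and 0.04, that of Atp5mc2 and Atp5mc2l1 by -0.04, that of Atp5f1c and Taf3 by -0.01, that of Ndufs5 and Ndufs5-ps2 by -0.14, and that of Uqcrb and Uqcrbl1 by 0.14. All 8 had overlapping groups.

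Of the members, 6 had several single-symbol probe sets, 13 in all, and in no gene did these differ in sign. For Cox5a, 2 of its 3 probe sets held the same values on every array.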
